A study of Homo sapiens with 5 samples.

Results

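Of 10 genes of the Notch pathway, the ligands DLL1 and DLL4 were higher, and the ligand JAG1, the receptors NOTCH2 and NOTCH3 and the effectors HEY2 and HEYL were lower, in cardiomyocyte cultures made with a YAP inhibitor and Activin than in cultures made by the GiWi protocol. The genes were taken by name as 3 ligands (JAG1, DLL1, DLL4), 3 receptors (NOTCH1, NOTCH2, NOTCH3) and 4 transcriptional effectors (HES1, HEY1, HEY2, HEYL). All 10 are among the 27139 genes listed in the deposited tables, and all 10 were among the 17634 genes tested. Polyadenylated RNA was sequenced from H1, an established human embryonic stem cell line of wild-type genotype, at day 30 of differentiation. In 1 protocol (3 libraries, called YAPi) the cells had been treated with the YAP inhibitor and Activin, with a labelled treatment time of 24 h. In the protocol set against it (2 libraries, called GiWi) they had been treated with a GSK3 inhibitor and an inhibitor of Wnt and beta-catenin signalling, with a labelled treatment time of 48 h. Protocol and treatment time therefore cannot be told apart, both groups come from 1 cell line, and no day before day 30 was analysed here.

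Notch signalling passes between touching cells. A ligand of the Jagged or Delta family on 1 cell binds a Notch receptor on its neighbour, the receptor is cut first by an ADAM protease and then by gamma-secretase, and the freed intracellular domain joins the DNA-binding protein RBPJ and a Mastermind coactivator to switch on repressor genes of the HES and HEY families. In the heart the pathway is known for its roles in endocardium, in trabeculation, in valve formation and in the smooth muscle of vessels, and HEY2 is known as a gene of ventricular compact muscle.

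The libraries held 43661188 to 48825439 exon counts in YAPi and 48309765 to 48904302 in GiWi. Replicate 3 of YAPi stood apart from replicates 1 and 2. A chi-square of the counts (genes holding 20 or more in the pair), divided by its degrees of freedom, came to 53.5 between YAPi replicates 1 and 3 and 48.4 between 2 and 3, against 2.13 between 1 and 2 and 5.89 between the GiWi libraries. The cardiomyocyte label was checked on 12 markers (among them TNNT2, ACTN2 and NKX2-5). Their summed level was 1796 to 4363 CPM (counts scaled to library size with TMM factors) in YAPi and 4905 to 5030 CPM in GiWi, and none was at 0 in either group, with the lowest sum in YAPi replicate 3. Of the 12, 2 rose and 2 fell, and 4 rose and 6 fell without that library. Over all tested genes 30.2% rose and 26.9% fell, and without that library 38.4% rose and 36.5% fell. With all 5 libraries, MYL2 (mean 135 CPM in YAPi, 4.56 in GiWi) and MYH7 (925 and 404) rose. MYH6 (101 CPM in YAPi, 1867 in GiWi) and RYR2 (50.4 and 90.2) fell, and TNNT2, ACTN2 and NKX2-5 did not pass. Markers of other cell types were present as well, so these are mixed cultures, and fewer cells of a type and less RNA per cell cannot be told apart in them. Nothing in the labels says that each library had a culture of its own, so the p-values reflect the spread between libraries, which may be technical. Fold changes of the 10 genes, and counts of calls in the marker lists and in the pathway as a whole, are given with and without YAPi replicate 3.

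**Figure D1:**
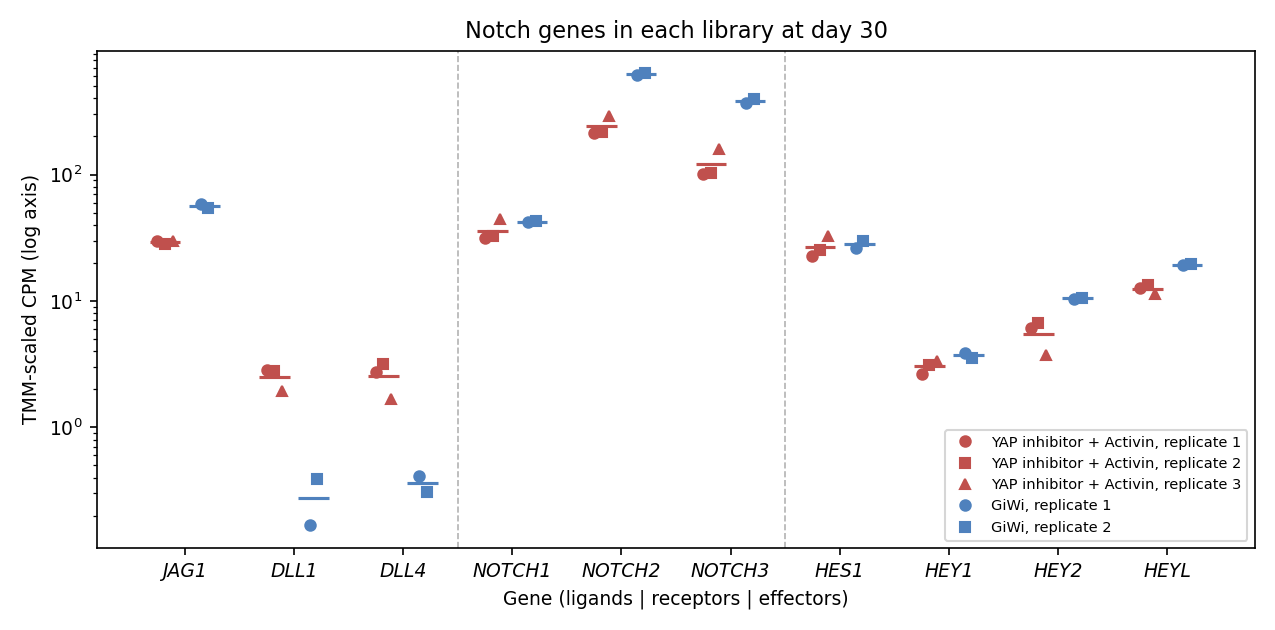
Each point is 1 library, on a log axis of TMM-scaled CPM, with YAPi in red and GiWi in blue, and the horizontal line is the group mean. DLL1 and DLL4 lie far higher in the 3 YAPi libraries, while JAG1, NOTCH2, NOTCH3, HEY2 and HEYL lie lower than in both GiWi libraries.

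The genes differed widely in level. On the authors' FPKM scale, which divides by transcript length and so allows genes to be compared, the order of mean levels in YAPi was NOTCH2 (16.6 FPKM), HES1 (14.6), NOTCH3 (11.9), JAG1 (3.88), NOTCH1 (3.07), HEYL (2.39), HEY2 (1.63), HEY1 (1.04), DLL1 (0.602) and DLL4 (0.584). In GiWi it was NOTCH2 (47.5 FPKM), NOTCH3 (41.4), HES1 (16.9), JAG1 (8.22), HEYL (4.11), NOTCH1 (3.96), HEY2 (3.44), HEY1 (1.41), DLL4 (0.0935) and DLL1 (0.0715). In YAPi the ranges of NOTCH2 and HES1 overlapped, as did those of HES1 and NOTCH3, of HEY2 and HEY1, and of DLL1 and DLL4. In GiWi those of DLL4 and DLL1 overlapped and no other neighbours did. NOTCH2 lay above 83.3% of tested genes in YAPi and above 93.9% in GiWi, whereas DLL1 lay above 20.5% and 7.72%. Between the groups the FPKM scale leaned lower in YAPi. The median log2 change over all tested genes was -0.12 on log2(FPKM + 0.1), against 0.01 on TMM-scaled counts. Sums of FPKM compared between the groups carry that shift.

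The comparison between protocols was made with edgeR's quasi-likelihood test over all tested genes, with Benjamini-Hochberg adjustment. A log2 fold change is YAPi over GiWi ± SE, so a positive value means higher in YAPi. Of the 10 genes, 7 passed at an adjusted p under 0.05, where 57.1% of all tested genes passed. Of those 7, 2 were higher, where 30.2% of all tested genes were called higher, and 5 were lower, where 26.9% were called lower. In 8 of the 10 the libraries of the groups did not overlap, a state that held for 75.8% of all tested genes. By direction, the YAPi libraries lay wholly above GiWi for 2 of the 10 (38.7% of tested genes) and wholly below for 6 (37.1%). Called changes of at least 2-fold were DLL1 and DLL4 upward, where 15.2% of tested genes were, and NOTCH2 and NOTCH3 downward, where 8.14% were. The median log2 fold change of the 10 was -0.47, against 0.01 over all tested genes, and the median size was 0.94, against 0.43. Without YAPi replicate 3 all 10 passed (2 higher and 8 lower), where 74.9% of tested genes passed, 38.4% higher and 36.5% lower. That fit leaves out the library that widened the spread within YAPi. Its p-values rest, within YAPi, on the close replicates 1 and 2.

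**Figure D2:**
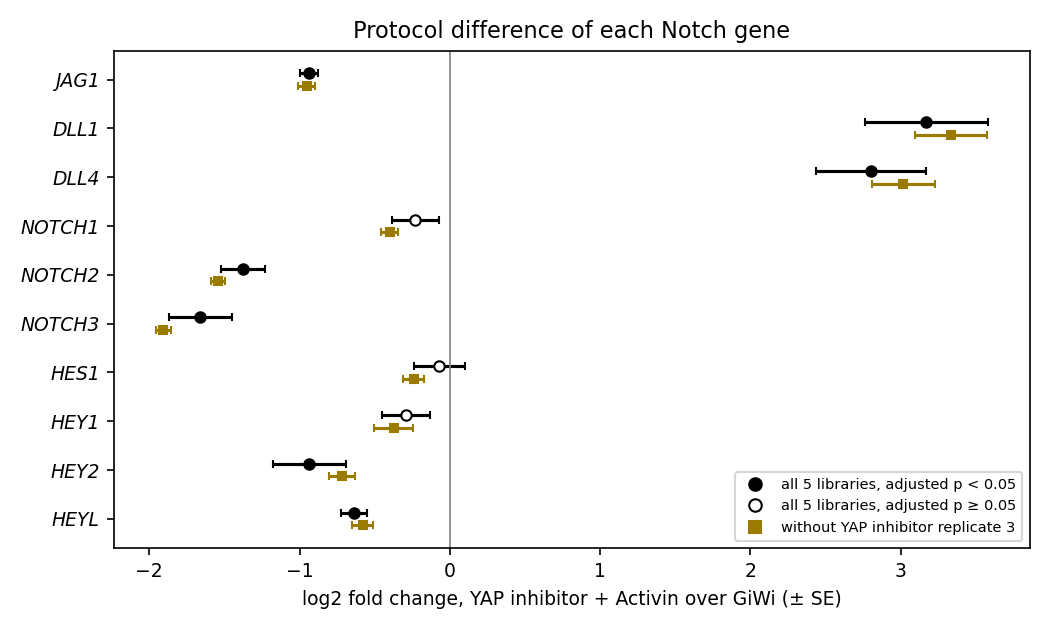
The log2 fold change of each gene (x axis, ± SE) is shown with all 5 libraries (circles, filled where the adjusted p is under 0.05) and without YAPi replicate 3 (squares). NOTCH1, HES1 and HEY1 are the 3 open circles, and their values without replicate 3 are -0.40, -0.24 and -0.37.

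Among the ligands, both Delta genes rose and JAG1 fell. DLL1, a Delta ligand of neural progenitors, somites and intestinal crypts, had 2.83, 2.77 and 1.93 CPM in YAPi, against 0.168 and 0.387 CPM in GiWi. Every YAPi library lay above both GiWi libraries, with the lowest YAPi value in replicate 3, and the GiWi values rest on 9 and 19.5 exon counts. The log2 fold change was 3.17 ± 0.41, a 9.01-fold rise (edgeR adjusted p = 0.00178). It was 3.34 ± 0.24 without YAPi replicate 3, 2.69 without GiWi replicate 1 and 3.88 without GiWi replicate 2, so the size of the rise moved with either GiWi library. DLL1 cleared the filter on low counts, a CPM of 0.207, in all 3 YAPi libraries but in only 1 of the 2 GiWi libraries. DLL4, the Delta ligand of arterial and sprouting endothelium, had 2.74, 3.15 and 1.68 CPM in YAPi, against 0.411 and 0.309 CPM in GiWi. The groups again did not overlap, and replicate 3 was again the lowest YAPi library. Its log2 fold change was 2.80 ± 0.37, a 6.97-fold rise (edgeR adjusted p = 0.00182), and it was 3.02 ± 0.21 without YAPi replicate 3.

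JAG1, the Jagged ligand of endocardium, valve and vascular smooth muscle, had 29.5, 28.4 and 29.9 CPM in YAPi, against 58.3 and 54.1 CPM in GiWi. The 3 YAPi libraries lay close together, replicate 3 included, and all were below both GiWi libraries. JAG1 fell, with a log2 fold change of -0.94 ± 0.06 (edgeR adjusted p = 1.85e-04), and -0.95 ± 0.06 without YAPi replicate 3. JAG1 remained the most abundant of the 3 ligands in every library, but its share was lower in every YAPi library than in both GiWi libraries, a difference not tested. It made up 74.9, 73.0 and 82.4% of the summed FPKM of JAG1, DLL1 and DLL4 in YAPi, against 98.3 and 97.8% in GiWi. The mean share was 76.8 ± 4.95% (SD, n = 3) in YAPi and 98.0 ± 0.332% (SD, n = 2) in GiWi. DLL1 took 11.8 ± 1.92% in YAPi and 0.871 ± 0.511% in GiWi, and DLL4 took 11.4 ± 3.09% in YAPi and 1.11 ± 0.179% in GiWi. The 3 ligands summed to 5.07 ± 0.239 FPKM in YAPi and 8.39 ± 0.620 FPKM in GiWi, so the higher Delta levels in YAPi were smaller in FPKM than the difference in JAG1.

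**Figure D3:**
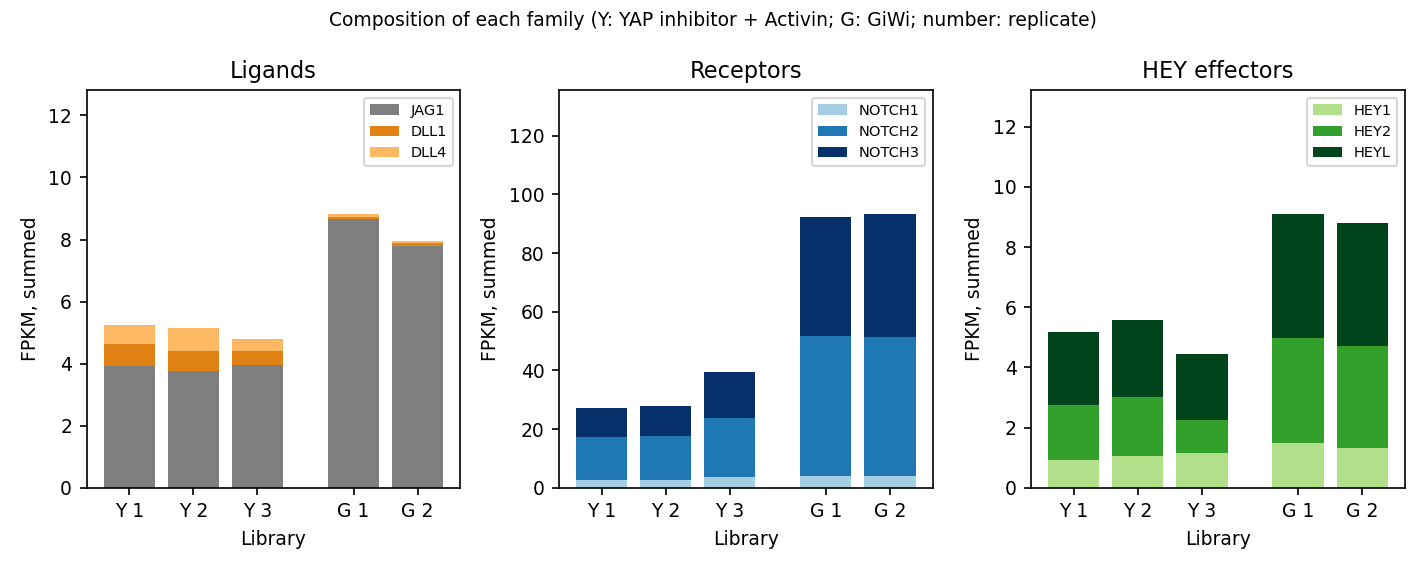
Stacked bars give the deposited FPKM (y axis) of each gene in every library, for ligands, receptors and HEY genes, with YAPi libraries (Y) left of GiWi libraries (G). Delta ligands are visible in the YAPi bars and almost absent from the GiWi bars, and the receptor bars of YAPi sum to 27.3 to 39.4 FPKM, against 92.4 to 93.4 FPKM in GiWi.

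The markers of cell types in which Delta ligands are known did not all move the same way. Their counts stand beside 30.2% of all tested genes that rose and 26.9% that fell (38.4% and 36.5% without YAPi replicate 3). Of 13 tested endothelial markers, 6 rose, 4 fell and 3 did not pass. Without YAPi replicate 3, where CLDN5 was too low to test, 5 rose and 5 fell. The 14 listed ones summed to 392 to 488 CPM in YAPi and 334 to 348 CPM in GiWi, with none at 0 in either group. KDR (260 CPM on average in YAPi, 190 in GiWi) and TEK (96.8 and 86.6), which both rose, made up most of these sums. ERG, a transcription factor of endothelium, averaged 29.8 ± 0.285 CPM in YAPi and 11.3 ± 0.642 CPM in GiWi. The junction gene CDH5 averaged 0.279 ± 0.156 CPM in YAPi and 0.961 ± 0.198 CPM in GiWi. The receptor gene TIE1 averaged 0.450 ± 0.138 CPM in YAPi and 3.46 ± 0.193 CPM in GiWi. The markers ERG, CDH5 and TIE1 were picked after their values were seen, as ones that moved in opposite directions. Of 11 tested neural and retinal markers, 10 rose and 1 fell, and the 12 listed ones summed to 374 to 532 CPM in YAPi and 301 to 305 CPM in GiWi, where SOX1 and ELAVL4 were at 0. SOX1 was too low to test and was also at 0 in YAPi replicates 1 and 2. Most of the GiWi sum was NES, an intermediate filament gene of progenitors and the 1 marker that fell, at 87.1 ± 12.7 CPM in YAPi and 252.9 ± 0.434 CPM in GiWi. Of 12 gut and other epithelial markers, 11 rose and 1 did not pass, with sums of 3070 to 3182 CPM in YAPi and 1697 to 1867 CPM in GiWi and none at 0. The keratins KRT8 and KRT18 made up most of these sums, and the median log2 fold change of the list was 5.76. All 11 macrophage markers rose, with sums of 244 to 564 CPM in YAPi and 6.23 to 6.92 CPM in GiWi, where CD163, C1QB and TYROBP were at 0. Without YAPi replicate 3 the counts of the neural, epithelial and macrophage lists were the same. Many of these markers lay below the filter's 0.207 CPM in both GiWi libraries. Among them were CD163, C1QA, C1QB, C1QC and TYROBP (macrophage), PAX6, OTX2, RAX and NEUROD1 (neural), and KRT20, MUC2 and ATOH1 (epithelial). They entered the test through YAPi alone, so the counts of these lists do not describe them as groups. Of the endothelial markers, CLDN5, which rose, lay below the filter in both GiWi libraries. ROBO4, which fell, lay below it in all 3 YAPi libraries. Each entered the test through 1 group alone. The part of any of these cell types in the rise of DLL1 and DLL4 was not tested.

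NOTCH2 and NOTCH3 fell strongly and NOTCH1 did not pass. NOTCH2, a broadly expressed receptor with a known role in heart and vessel development, had 211, 217 and 292 CPM in YAPi, against 615 and 631 CPM in GiWi. The groups did not overlap, and replicate 3 was the highest YAPi library. NOTCH2 fell, with a log2 fold change of -1.38 ± 0.15 (edgeR adjusted p = 9.25e-04), a level 2.60-fold higher in GiWi. NOTCH3, the receptor of pericytes and vascular smooth muscle, had 101, 103 and 159 CPM in YAPi, against 368 and 395 CPM in GiWi. The order of the libraries was the same as for NOTCH2, with replicate 3 nearest to GiWi but still far below it. NOTCH3 showed the largest fall of the 10 genes, with a log2 fold change of -1.66 ± 0.21 (edgeR adjusted p = 0.00163). Without YAPi replicate 3 the log2 fold changes were -1.54 ± 0.05 for NOTCH2 and -1.91 ± 0.05 for NOTCH3.

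NOTCH1, the receptor of endocardium and arterial endothelium, had 31.3, 32.5 and 44.2 CPM in YAPi, against 41.7 and 42.6 CPM in GiWi. Replicates 1 and 2 lay below both GiWi libraries and replicate 3 above them, so the groups overlapped. The log2 fold change was -0.23 ± 0.16 (edgeR adjusted p = 0.259), and without YAPi replicate 3 it was -0.40 ± 0.06 (edgeR adjusted p = 1.47e-06). The shares of the receptors, which were not tested either, also differed between the groups. NOTCH1 made up 9.76 ± 0.217% of the FPKM of the 3 receptors in YAPi and 4.27 ± 0.0791% in GiWi. NOTCH3 made up 37.4 ± 1.83% in YAPi and 44.5 ± 0.786% in GiWi, while NOTCH2 made up 52.9 ± 1.62% in YAPi and 51.2 ± 0.707% in GiWi. NOTCH2 has a partial near-copy, NOTCH2NL, with which it may share reads. NOTCH2NL had 17.0, 15.8 and 18.6 CPM in YAPi, against 23.2 and 22.9 CPM in GiWi (log2 fold change -0.43 ± 0.08, edgeR adjusted p = 0.00805). In the hg19 coordinates of the deposited tables, NOTCH2 spans chromosome 1, 120454176 to 120612317, on the minus strand, and NOTCH3 spans chromosome 19, 15270444 to 15311792, on the minus strand.

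The NOTCH3 pattern across the 5 libraries had close neighbours. Among 16435 tested genes, the centred log2 CPM profile nearest to that of NOTCH3 was that of LTBP4, a matrix gene that binds latent TGF-beta, at a Euclidean distance of 0.0224. CSDC2 followed at 0.0772 and BNC1 at 0.0858. These distances are over 5 libraries that share a protocol within each group, so they describe likeness in protocol difference and in replicate 3 together. LTBP4 had 169, 172 and 265 CPM in YAPi, against 608 and 655 CPM in GiWi. BNC1, a transcription factor of mesothelium and epicardium, is also 1 of the 8 epicardial markers. Of those 8, 6 fell and 2 did not pass (all 8 fell without YAPi replicate 3), and their sum was 262 to 461 CPM in YAPi, highest in replicate 3, and 1800 to 1855 CPM in GiWi, with none at 0 in either group. Of 11 tested mural and smooth muscle markers, 3 rose, 5 fell and 3 did not pass (5 rose and 6 fell without YAPi replicate 3), and the 12 listed ones summed to 2308 to 2588 CPM in YAPi and 1899 to 1993 CPM in GiWi, with HIGD1B at 0 in YAPi. ACTA2 (846 CPM on average in YAPi, 646 in GiWi) and TAGLN (1025 and 523), which both rose, made up most of these sums. All 4 endocardial markers had negative fold changes and 3 fell (4 without YAPi replicate 3), with sums of 532 to 614 CPM in YAPi and 772 to 797 CPM in GiWi and none at 0. CDH11, the 1 that did not pass with all libraries, made up most of these sums (514 CPM on average in YAPi, 593 in GiWi). The others averaged 33.6 CPM in YAPi and 172 in GiWi (NPR3), 12.1 and 17.0 (NFATC1), and 0.170 and 1.84 (PLVAP). PLVAP lay below the filter's 0.207 CPM in all 3 YAPi libraries and entered the test through GiWi alone. The count of the endocardial list therefore does not describe that list as a group. Of 8 fibroblast markers, 6 rose and 2 fell, with and without YAPi replicate 3, with sums of 106707 to 127479 CPM in YAPi and 59847 to 60153 CPM in GiWi and none at 0. The collagen genes COL1A1, COL1A2 and COL3A1, which rose, made up most of these sums, and PDGFRA and POSTN were the 2 that fell. Beside the counts of these lists, 30.2% of all tested genes rose and 26.9% fell (38.4% and 36.5% without YAPi replicate 3). The part of these cell types in the fall of NOTCH2 and NOTCH3 was not tested. For DLL1, the largest rise, the nearest profiles were those of ZBTB16 (0.282), CRYM (0.328) and ANKDD1B (0.353). Its neighbours were thus less close than those of NOTCH3, and they too were low, at 0.643 to 2.55 CPM in YAPi.

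The effectors HES1, HEY2 and HEYL are textbook direct targets of Notch, and their promoters are shown because each holds the RBPJ core. The motif searched was TGGGAA on both strands (TTCCCA on the other), within the 250 bases before the annotated start in RefSeq's GRCh38.p14 promoter table, in which 8 of the 10 genes were matched. Capitals mark the motif, and each sequence is written 5′ to 3′ on the strand of its gene.
HES1 (chr3:194135898-194136147, plus strand): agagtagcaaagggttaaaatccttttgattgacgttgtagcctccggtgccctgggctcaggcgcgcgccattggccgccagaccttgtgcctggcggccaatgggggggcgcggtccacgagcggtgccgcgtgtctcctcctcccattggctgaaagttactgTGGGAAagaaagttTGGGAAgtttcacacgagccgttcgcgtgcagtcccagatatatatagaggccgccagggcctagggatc
HEY2 (chr6:125749382-125749631, plus strand): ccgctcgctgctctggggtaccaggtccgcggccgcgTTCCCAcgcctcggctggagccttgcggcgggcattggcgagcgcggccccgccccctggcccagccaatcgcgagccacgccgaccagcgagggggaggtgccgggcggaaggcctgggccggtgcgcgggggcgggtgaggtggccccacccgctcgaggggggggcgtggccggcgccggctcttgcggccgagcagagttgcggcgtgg
HEYL (chr1:39639644-39639893, minus strand): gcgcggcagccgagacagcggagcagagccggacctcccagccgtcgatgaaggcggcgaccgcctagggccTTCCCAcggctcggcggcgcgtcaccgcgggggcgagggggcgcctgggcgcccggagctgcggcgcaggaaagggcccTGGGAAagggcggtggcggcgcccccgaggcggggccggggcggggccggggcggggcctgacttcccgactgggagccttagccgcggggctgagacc
HES1 carried the core at 84 to 79 and at 70 to 65 bases before the start, both in the same orientation. HEY2 carried 1 copy, at 213 to 208 bases before the start, in reverse orientation. HEYL carried 2 copies, at 178 to 173 bases in reverse and at 99 to 94 bases in forward orientation. Of the 8 matched promoters, these 3 held the core, which 20.8% of all 35116 promoters of the same length hold. The longer form GTGGGAA, which contains the core, was in the same 3 promoters and in 5.43% of all promoters. A match is only a run of letters and was not tested for binding.

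Of these effectors, HEY2 and HEYL fell, and HES1 and HEY1 did not pass. HEY2, the repressor of ventricular compact muscle, had 6.12, 6.63 and 3.71 CPM in YAPi, against 10.4 and 10.6 CPM in GiWi. All YAPi libraries lay below both GiWi libraries, and replicate 3 was the lowest. HEY2 fell, with a log2 fold change of -0.93 ± 0.24 (edgeR adjusted p = 0.0207), and without YAPi replicate 3 it was -0.72 ± 0.09. The call was lost without GiWi replicate 1 or GiWi replicate 2 (edgeR adjusted p = 0.1003 and 0.1098), while the smallest adjusted p of any alternative other than the block was 2.26e-07. HEYL, known in vascular smooth muscle, had 12.6, 13.4 and 11.4 CPM in YAPi, against 19.2 and 19.6 CPM in GiWi. The groups did not overlap, and its log2 fold change was -0.64 ± 0.09 (edgeR adjusted p = 0.00208), against -0.58 ± 0.07 without YAPi replicate 3.

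HES1, the repressor that many cell types use in response to Notch, had 22.6, 25.1 and 32.9 CPM in YAPi, against 26.4 and 30.0 CPM in GiWi. The YAPi libraries spanned the GiWi libraries, with replicate 3 the highest of all 5. The log2 fold change was -0.07 ± 0.17 (edgeR adjusted p = 0.743), and its sign was positive in 3 of the alternatives. Without YAPi replicate 3 it was -0.24 ± 0.07 (edgeR adjusted p = 0.00415). HEY1, a HEY gene of endothelium and atrial muscle, had 2.64, 3.10 and 3.36 CPM in YAPi, against 3.90 and 3.52 CPM in GiWi. The libraries did not overlap, but the difference was small (log2 fold change -0.29 ± 0.16, edgeR adjusted p = 0.172). It passed without YAPi replicate 3, at -0.37 ± 0.13 (edgeR adjusted p = 0.0127), and with limma on log2(FPKM + 1), at -0.24 (adjusted p = 0.0421). HEY1 is listed under different transcripts in the count and FPKM tables, of 2298 and 2286 bases. Of the summed FPKM of the HEY genes, HEY2 made up 31.7 ± 6.07% in YAPi and 38.4 ± 0.558% in GiWi, a difference of -6.67 percentage points that was -3.16 without YAPi replicate 3. HEYL was the largest part in every library, at 47.4 ± 1.70% in YAPi and 45.9 ± 0.623% in GiWi. The 3 HEY genes summed to 5.06 ± 0.578 FPKM in YAPi and 8.95 ± 0.218 FPKM in GiWi.

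**Figure D4:**
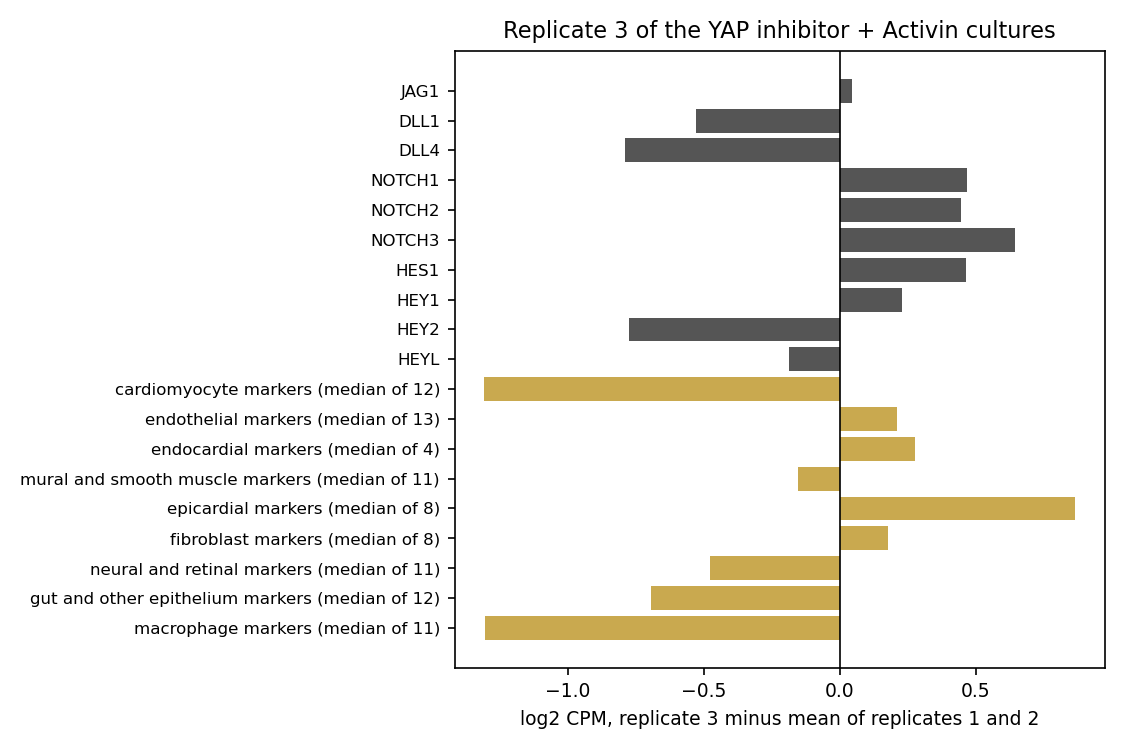
Bars give the log2 CPM of YAPi replicate 3 minus the mean of YAPi replicates 1 and 2 (x axis) for the 10 Notch genes (grey) and the median over the tested members of each marker list (gold). HEY2 (-0.77), DLL4 (-0.79) and DLL1 (-0.53) lie to the left, and NOTCH3 (0.64), NOTCH2 (0.45) and NOTCH1 (0.47) to the right. The lists to the left are cardiomyocyte (-1.31), macrophage (-1.30), gut and other epithelial (-0.69), neural and retinal (-0.48) and mural (-0.15) markers. To the right are epicardial (0.87), endocardial (0.28), endothelial (0.21) and fibroblast (0.18) markers.

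Within YAPi, replicate 3 split the 10 genes. Relative to the mean of replicates 1 and 2 on the log2 scale, NOTCH3 was at 0.64, NOTCH1 at 0.47, HES1 at 0.46, NOTCH2 at 0.45 and HEY1 at 0.23, while DLL4 was at -0.79, HEY2 at -0.77, DLL1 at -0.53 and HEYL at -0.19. JAG1 was at 0.05. All 3 receptors were thus higher in replicate 3 than in both other YAPi libraries, and both Delta ligands were lower. Of the 10 genes, 6 were higher in replicate 3 than in both others and 4 lower, while of the 17634 tested genes 7659 were higher and 7742 lower, so most genes were on 1 side or the other. All 12 cardiomyocyte, all 11 macrophage and all 11 tested neural and retinal markers were lower there than in replicates 1 and 2. Of 12 gut and other epithelial markers 8 were lower and 4 higher, and of 11 tested mural markers 8 and 3. All 4 endocardial markers were higher, as were 6 of 8 epicardial and 6 of 8 fibroblast markers, with 2 of each lower. Of 13 tested endothelial markers, 5 were lower and 4 higher. Replicates 1 and 2 differed by at most 0.23 in size for any of the 10 genes. No cause of the difference of replicate 3 was tested.

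The rest of the pathway did not move as a block. Of 52 further Notch pathway genes, 51 were tested, and 17 rose, 14 fell and 20 did not pass, so that 60.8% passed against the 57.1% of all tested genes. Their median log2 fold change was 0.04, against 0.01 over all tested genes. Without YAPi replicate 3, 23 rose and 18 fell, where 38.4% and 36.5% of all tested genes did. In that fit 80.4% of the pathway genes passed, against 74.9% of all tested genes. The split depended on scaling, with 13 higher and 21 lower when scaled by library size alone, 12 higher and 17 lower on log2(FPKM + 1), and 12 higher and 16 lower on log2(FPKM + 0.1). Of the pathway calls under these scalings, 38.2, 41.4 and 42.9% were higher, against 35.8, 37.6 and 39.5% of the calls over all tested genes. Without GiWi replicate 1 or 2 only 1 GiWi library is left, so pathway calls of those fits are not given.

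Of the 5 other ligands, 2 rose and 3 did not pass, where 30.2% of all tested genes rose and 26.9% fell. DLL3, a Delta protein known to hold back Notch in the cell that makes it, had 4.34, 3.76 and 2.42 CPM in YAPi, against 0.634 and 0.406 CPM in GiWi (log2 fold change 2.75 ± 0.36, edgeR adjusted p = 0.00185). It ran parallel to DLL1 and DLL4, with the groups apart and replicate 3 lowest in YAPi. DLK1, an imprinted Delta-like gene without the domain that binds Notch in classical ligands, had 7119, 7241 and 9321 CPM in YAPi, against 3285 and 3509 CPM in GiWi (log2 fold change 1.22 ± 0.14, edgeR adjusted p = 0.00107). JAG2, the other Jagged ligand, did not pass (log2 fold change 0.04 ± 0.34, edgeR adjusted p = 0.921), and without YAPi replicate 3 it fell (-0.37 ± 0.08, edgeR adjusted p = 3.67e-04). NOTCH4, the receptor of endothelium, averaged 0.770 ± 0.136 CPM in YAPi and 1.03 ± 0.122 CPM in GiWi and did not pass (edgeR adjusted p = 0.186).

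Of 8 genes for the cutting proteases, 5 rose, 1 fell and 2 did not pass, all by modest amounts. Over all tested genes 30.2% rose and 26.9% fell. PSENEN, a subunit of gamma-secretase, averaged 46.3 ± 2.43 CPM in YAPi and 29.5 ± 0.409 CPM in GiWi (log2 fold change 0.65 ± 0.07). ADAM17 was the protease that fell, at 25.1 ± 1.66 CPM in YAPi and 32.3 ± 1.88 CPM in GiWi (log2 fold change -0.37 ± 0.08). Of 5 glycosyltransferases, which tune the affinity of receptors for ligands, 2 rose and 1 fell. MFNG averaged 1.28 ± 0.467 CPM in YAPi and 0.207 ± 0.129 CPM in GiWi (log2 fold change 2.61 ± 0.55). Its GiWi values rest on 15.5 and 6.5 counts, and GiWi replicate 2, at 0.116 CPM, lay below the filter's 0.207 CPM. POFUT1, which adds fucose to the receptor, averaged 157.8 ± 4.02 CPM in YAPi and 111 ± 1.63 CPM in GiWi (log2 fold change 0.50 ± 0.05).

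Of 13 nuclear partners, 1 rose, 7 fell and 5 did not pass, where 30.2% of all tested genes rose and 26.9% fell. Without YAPi replicate 3, 2 rose and 9 fell, where 38.4% and 36.5% of all tested genes did. RBPJ itself averaged 58.8 ± 2.21 CPM in YAPi and 63.2 ± 1.94 CPM in GiWi and did not pass (log2 fold change -0.10 ± 0.06, edgeR adjusted p = 0.180). MAML3, a Mastermind coactivator, fell to 26.1 ± 1.47 CPM in YAPi, against 40.4 ± 1.19 CPM in GiWi (log2 fold change -0.63 ± 0.07). The Groucho corepressors went both ways. TLE2 averaged 24.6 ± 3.74 CPM in YAPi and 56.3 ± 3.25 CPM in GiWi (log2 fold change -1.20 ± 0.13), and TLE4 averaged 55.4 ± 3.93 CPM in YAPi and 24.6 ± 0.501 CPM in GiWi (log2 fold change 1.17 ± 0.08). Among 13 genes of trafficking and degradation, 3 rose and 4 fell, beside the same 30.2% and 26.9% of all tested genes. NEURL1, a ubiquitin ligase that acts on ligands, averaged 4.27 ± 0.390 CPM in YAPi and 1.29 ± 0.0217 CPM in GiWi (log2 fold change 1.72 ± 0.16). NUMBL, of the Numb family of Notch antagonists, averaged 42.1 ± 4.22 CPM in YAPi and 64.5 ± 4.24 CPM in GiWi (log2 fold change -0.61 ± 0.10).

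**Figure D5:**
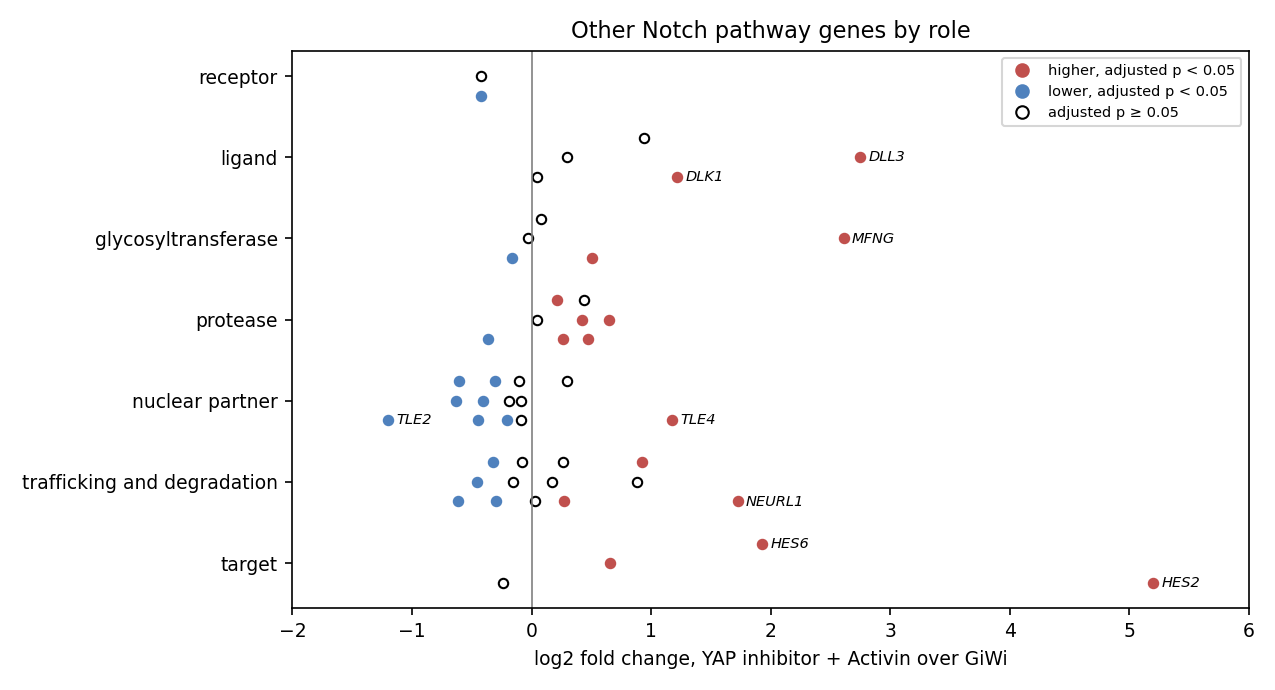
Each point is 1 of the other tested pathway genes, placed by log2 fold change (x axis, YAPi over GiWi) within its role (rows), red where higher and blue where lower at an adjusted p under 0.05. Genes called with a log2 change of at least 1 are named, and HES5 is left out because both GiWi libraries held 0 counts.

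Of 5 tested genes outside the 10 that were listed as targets (NRARP and HES family genes), 4 rose, with and without YAPi replicate 3. Over all tested genes 30.2% rose, and 38.4% without that library. Of the 4 listed targets that rose, HES2 and HES5 lay below the filter's 0.207 CPM in both GiWi libraries. They entered the test through YAPi alone, so the count does not describe the listed targets as a group. Whether each of these genes responds to Notch in these cultures was not tested. HES6, which opposes HES1 in neural cells, had 14.0, 12.9 and 11.6 CPM in YAPi, against 3.28 and 3.46 CPM in GiWi (log2 fold change 1.93 ± 0.12, edgeR adjusted p = 1.61e-04). HES5, the Notch target of neural progenitors, had 1.66, 1.97 and 0.668 CPM in YAPi and 0 counts in both GiWi libraries. It was at least 51.0-fold higher in YAPi, against a floor of 3 counts over the GiWi group, a bound that covers counting error only (edgeR adjusted p = 0.00340). HES2 had 0.616, 0.964 and 3.96 CPM in YAPi, against 0.0746 and 0.0193 CPM in GiWi, with replicate 3 the highest YAPi library (log2 fold change 5.20 ± 1.25, edgeR adjusted p = 0.0158). Its GiWi values rest on 4 and 1 counts, and the log2 fold change was 3.97 ± 0.49 without YAPi replicate 3. NRARP, a target that feeds back on the pathway, averaged 7.24 ± 0.684 CPM in YAPi and 4.58 ± 0.113 CPM in GiWi (log2 fold change 0.66 ± 0.12, edgeR adjusted p = 0.00607). HES4 averaged 4.76 ± 0.549 CPM in YAPi and 5.62 ± 0.851 CPM in GiWi and did not pass. HES7 was too low to test. HES5 and HES6 are themselves genes of neural cells, and the part of those cells in these rises was not tested.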

How the data were processed

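Per the labels' protocols, stranded mRNA libraries were sequenced on an Illumina HiSeq instrument. Named in the submitters' processing notes, with no role or order, are the build hg19 and the tools edgeR 3.16.1, HOMER, STAR 2.5.1 and FastQC 0.11.5. The authors deposited exon counts per gene, a unit handled like expected counts, because 34.6% of values are not whole (every value is a multiple of 0.5), and they were rounded to whole numbers here. The authors also deposited FPKM values. How strand was handled in counting was not given in the sources used here, and 3 emptied lines in each table were not analysed here.

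The 10 genes, the gene lists and the tests were chosen with earlier results of these data known. YAPi was compared with GiWi with edgeR 4.0.16 in R 4.3.3 (TMM factors, filterByExpr with minimum count 10 and minimum total 15, quasi-likelihood test, Benjamini-Hochberg adjustment over 17634 genes, threshold 0.05). The SE is the log2 fold change divided by the square root of F. CPM values are TMM-scaled, and means are given ± SD (n = 3 for YAPi, n = 2 for GiWi). Pathway genes named are called genes with a mean of at least 1 CPM in the higher group; JAG2, NOTCH4, RBPJ, HES4 and NOTCH2NL were named for their role with their values seen. Profiles used log2 CPM with a prior count of 2, without symbols starting LOC, LINC or MIR or containing orf or KIAA. Alternatives used DESeq2 1.42.0 and limma 3.58.1. The fit was also run on simulated counts, drawn at the common dispersion with no library set apart. That run therefore cannot show how the fit handles a library such as YAPi replicate 3. Figures were drawn with matplotlib 3.10.9.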

Additional observations from a re-analysis of the deposited data

How the results depend on the processing

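The count of 7 called Notch genes ran from 6 to 10 over all alternatives, and DLL1 and DLL4 were higher, and JAG1, NOTCH2, NOTCH3 and HEYL lower, past the threshold in each. NOTCH1 and HEY1 also passed when scaled by library size alone (log2 fold change -0.42 and -0.49), which put the median of all tested genes at -0.18, against 0.01, and with limma-voom and sample weights (-0.38 and -0.36). HEY1 passed on log2(FPKM + 0.1) too (-0.40), and HES1 with limma-voom (-0.22). The log2 fold change of HES1 was positive without GiWi replicate 2 (0.02), without YAPi replicate 1 (0.0498) and with YAPi replicates 1 and 2 summed (0.0134), an alternative chosen after seeing the data. Of all tested genes, 10065 passed, and leaving out 1 library gave 5909 to 13115, where a GiWi library standing alone was assumed to vary as the YAPi libraries do. Of those calls 52.9% were higher, against 35.8% when scaled by library size alone, 37.6% on log2(FPKM + 1) and 39.5% on log2(FPKM + 0.1). Other pathway genes called were 31, and 16 to 41 without 1 library. The cause of these changes was not tested. The HEY2, NOTCH3 and JAG1 shares kept their direction under every alternative. The replicate numbers share no stated pairing: the replicate 1 minus 2 differences of the groups correlated at 0.02 across genes. With the replicate number as a block, in which YAPi replicate 3 drops out of the contrast, 13576 genes, 41 pathway genes and all 10 Notch genes passed (NOTCH1 -0.40, HEY1 -0.38, HES1 -0.24). Depth limits DLL1, DLL4, MFNG, HES2 and HES5, each with at most 22.5 counts in either GiWi library.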
